A study of Arabidopsis thaliana with 16 samples.

Results

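The transcriptional response of wild-type Arabidopsis thaliana seedlings of the accession Col-0 to 6 h of sorbitol was measured by RNA sequencing of whole seedlings. Its members are 4 of the 16 libraries of the series, chosen by their labels: 2 from Col-0 seedlings moved into liquid half-strength MS medium with 250 mM sorbitol and 2 from Col-0 seedlings moved into the same medium without it, the mock. These seedlings were 10 days old, grew under long days of 16 h light and 8 h dark, and stayed in the liquid for 6 h. The study ran the same treatment on seu-6, a mutant of SEUSS, a transcriptional co-regulator whose condensation the study tied to tolerance of hyperosmotic stress. A separate experiment on 14-day seedlings of both genotypes used 300 mM NaCl for 15 min with its own mock. The labels call the 2 libraries of each group biological replicates.

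Sorbitol outside the cells lowers the water potential of the medium, so that cells lose water and turgor without an ionic load. Plants under such stress make the hormone abscisic acid (ABA). ABA binds receptors of the PYR/PYL family, the bound receptors inhibit clade A protein phosphatases 2C, and SnRK2 kinases freed from these phosphatases activate bZIP factors that switch on genes for protective proteins and for compatible solutes such as proline and raffinose sugars, while growth slows.

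The 4 libraries held between 40686385 and 42100411 reads assigned to genes, and over the 16 libraries this total ranged from 39756463 to 42676953. Levels are given in counts per 1000000 reads (CPM) after scaling by the trimmed mean of M values (TMM), which sets the bulk of genes to no change. With 3 counts as the floor, detection began near 0.0713 to 0.0737 CPM a library. Across genes the replicates correlated with r = 0.997 in each of the 2 groups. Over genes with a mean above 5 CPM, the spread between replicates was 0.0967 on the log2 scale in sorbitol and 0.0893 in mock. One library outside this comparison, seu-6 mock replicate 1 of the 6 h experiment, stood apart. In it 12.7% of reads were not assigned to a gene, against 8.78% to 11.5% in the other 7 of that experiment. Reads without a unique alignment made up 4.48% in it, against 2.11% to 3.08% in those 7. This library enters the response of Col-0 through the steps shared by the 8 libraries. These are the filter on low counts, TMM scaling, the average log2 CPM and the estimate of spread. SEU itself had 0.421 to 0.651 CPM in the 4 seu-6 libraries of the experiment, against 56.2 and 57.1 CPM in sorbitol and 56.4 and 53.0 CPM in mock Col-0 seedlings. Light-harvesting genes of the shoot and Casparian strip and root hair genes of the root were both present, as the label of whole seedlings says. In a whole seedling, fewer cells of a type and less RNA per cell cannot be told apart.

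A gene was called when edgeR's quasi-likelihood test, adjusted by Benjamini and Hochberg over all genes tested, gave an adjusted p under 0.05. Of 21633 genes tested, 6777 (31.3%) were called higher and 6739 (31.2%) lower in sorbitol than in mock seedlings, together 13516 (62.5%). Many of these changes were small, and 6776 of the called genes changed by less than 1.5-fold. At least a 2-fold change was found for 1834 genes called higher (8.48%) and 1645 called lower (7.6%), and at least a 4-fold change for 608 and 386. The median log2 fold change of all genes tested was -0.0045. The counts of list members below stand beside the 31.3% of all genes called higher and the 31.2% called lower. The largest rises included protective proteins and negative regulators of ABA signalling, and the largest falls included ABA receptors and cell wall proteins.

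**Figure D1:**
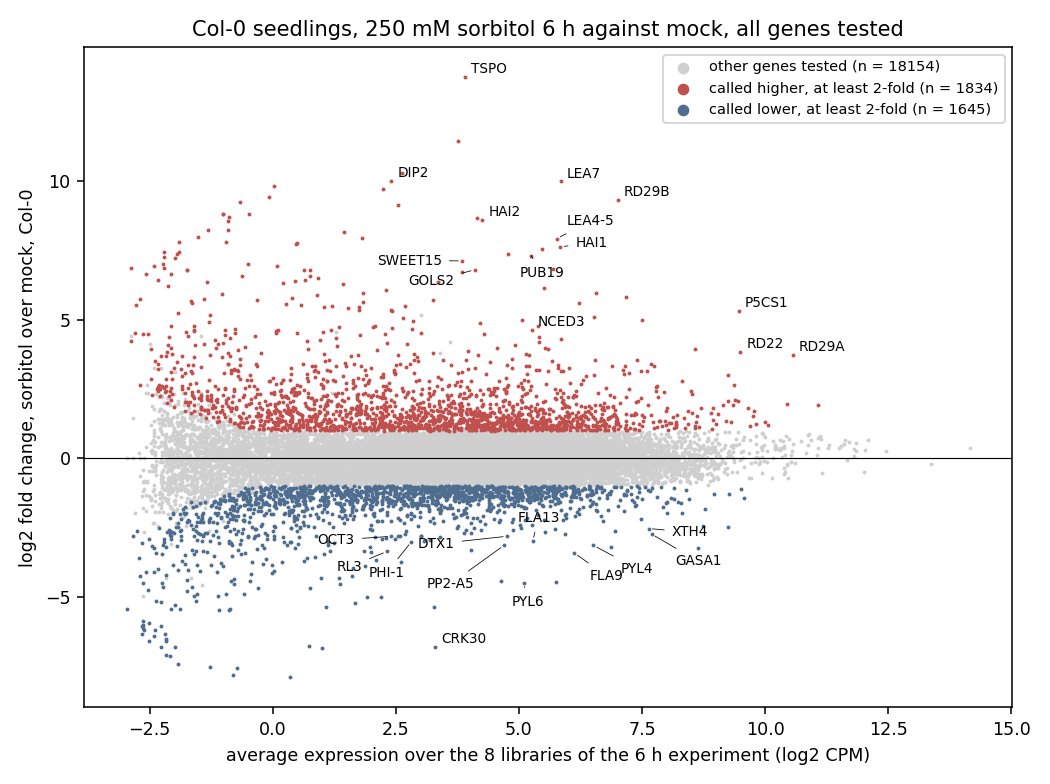
Log2 fold change of sorbitol over mock in Col-0 (vertical axis) against average expression in log2 CPM (horizontal axis), 1 point for each of the 21633 genes tested; red and blue points were called and changed at least 2-fold, 1834 up and 1645 down. TSPO, LEA7 and RD29B stand at the top, PYL6 and CRK30 near the bottom, and RD29A and P5CS1 rise at high expression.

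By the rule of the 10 largest rises and falls among named genes of average log2 CPM of at least 2, TSPO led the rises. TSPO, an ABA-induced membrane protein that is degraded by autophagy, had 1758 and 1603 reads in the sorbitol libraries and none in either mock library. Against a floor of 3 counts over the mock group it was at least 1106-fold higher in sorbitol, whereas its fitted log2 fold change, set by the prior count, is no bound. DIP2 had 591 and 625 reads in sorbitol and a single read in the mock libraries, a ratio of 1200.1 with an exact 95% counting interval of 215 to 47439. Both genes were therefore near absent in mock and well detected in both sorbitol libraries. PUB19, a U-box ubiquitin ligase, had 108 and 111 CPM in sorbitol seedlings and 0.596 and 0.776 CPM in mock seedlings, a log2 fold change of 7.32 ± 0.11 (SE). LEA7, RD29B, LEA4-5, HAI1, HAI2, SWEET15 and GOLS2 made up the rest and are given with their groups.

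Among the falls, CRK30, a cysteine-rich receptor-like kinase, had 0.0756 and 0.298 CPM in sorbitol seedlings and 22.8 and 20.4 CPM in mock seedlings, a log2 fold change of -6.83 ± 0.22. FLA9 and FLA13, fasciclin-like arabinogalactan proteins of the cell wall, fell by 10.7-fold and 7.94-fold; FLA9 had 9.55 and 11 CPM in sorbitol seedlings and 110.1 and 110.1 CPM in mock seedlings. No sorbitol value of these 3 genes came near a mock value. PP2-A5, a phloem lectin, stood at 4.81 and 4.45 CPM in sorbitol against 40.2 and 41.8 CPM in mock seedlings. DTX1, an efflux transporter of the MATE family, and OCT3, an organic cation transporter, had log2 fold changes of -2.82 and -2.82. RL3, a small RADIALIS-like MYB protein, and PHI-1, a phosphate-induced protein related to EXORDIUM, had -3.37 and -3.01. The other 2 of the 10, PYL6 and PYL4, are ABA receptors.

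All 13 tested genes of ABA synthesis and breakdown rose, with a median log2 fold change of 1.83. NCED3, the 9-cis-epoxycarotenoid dioxygenase that limits ABA synthesis in drought, had 103 and 108 CPM in sorbitol seedlings and 4.15 and 4.26 CPM in mock seedlings. The 2 groups were far apart, and the log2 fold change was 4.65 ± 0.08 (edgeR adjusted p = 2.98e-49). ABA1, the zeaxanthin epoxidase, had 775 and 756 CPM in sorbitol seedlings and 213 and 219 CPM in mock seedlings (1.83 ± 0.03 on the log2 scale). AAO3, the aldehyde oxidase of the last step, rose by 1.46, and BGLU18, which frees ABA from its glucose ester, by 1.70. The genes of ABA breakdown rose as well. CYP707A1, an ABA 8′-hydroxylase, had 39.9 and 41.2 CPM in sorbitol seedlings and 7.40 and 6.73 CPM in mock seedlings and a log2 fold change of 2.52 ± 0.09, and CYP707A2 and CYP707A4 had 2.32 and 1.97. The smallest rises were those of ABA3, the molybdenum cofactor sulfurase, at 0.34, and of ABA2 and CYP707A3 at 0.39 each. NCED2 rested on 2 mock reads, with a ratio of 24.2 and a counting interval of 6.35 to 205, and NCED5 and NCED6 were too low to test.

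The receptors went the other way, with 7 of 9 tested lower, 6 of them by at least 2-fold, and a median log2 fold change of -1.44. PYL6 had 2.27 and 2.41 CPM in sorbitol seedlings and 54.2 and 51.6 CPM in mock seedlings, a 22.6-fold fall (-4.50 ± 0.10; edgeR adjusted p = 1.72e-45). PYL4 had 17.2 and 16.4 CPM in sorbitol seedlings and 153 and 145 CPM in mock seedlings, a log2 fold change of -3.15 ± 0.05, and PYL5 had -2.56. PYR1 had 25.9 and 29.5 CPM in sorbitol seedlings and 94.5 and 102 CPM in mock seedlings (-1.83 ± 0.05). For each of these receptors both sorbitol libraries lay far below both mock libraries. PYL1 and PYL2 had log2 fold changes of -1.05 and -1.44, and PYL8, whose protein acts in root ABA responses, had -0.52. PYL7 and PYL9 were called higher, at 0.68 and 0.45; without sorbitol replicate 1 the count of receptors called higher was 1, and with no filter on low counts it was 4. Summed over all 14 receptors of the list, tested or not, the level was 181 and 181 CPM in sorbitol against 547 and 553 CPM in mock seedlings.

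Every one of the 9 clade A phosphatases tested rose, each by at least 2-fold, with a median of 3.70. HAI1 had 136 and 142 CPM in sorbitol seedlings and 0.939 and 0.447 CPM in mock seedlings, and HAI2 had 56.2 and 55.0 CPM in sorbitol seedlings and 0.137 and 0.141 CPM in mock seedlings. Both genes stood below 1 CPM in each mock library, the sorbitol libraries were alike, and the log2 fold changes were 7.63 ± 0.13 and 8.61 ± 0.16. PP2CA, which holds SnRK2 kinases and ion channels in check, had 379.9 and 361 CPM in sorbitol seedlings and 32.4 and 31.3 CPM in mock seedlings (3.54 ± 0.04; edgeR adjusted p = 3.94e-59). ABI1 and HAB1 rose by 2.59 and 3.19, and HAB2 by 1.35. HAI3 rested on 2 mock reads, with a ratio of 298 and an interval of 82.0 to 2463. AHG1, known from seeds, rested on 1 mock read, with a ratio of 14.8 and an interval of 2.28 to 623.

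The SnRK2 kinases changed less. Of 10 tested, 9 rose, 2 of them by at least 2-fold, and the median was 0.57. SNRK2.6, the kinase of guard cell ABA responses also called OST1, had 44.9 and 43.8 CPM in sorbitol seedlings and 19.3 and 18.6 CPM in mock seedlings (1.23 ± 0.07). SNRK2.3 and SNRK2.2, the other main kinases of the ABA pathway, rose by 0.87 and 0.19, and SNRK2.9 and SNRK2.1 by 1.03 and 0.64. SNRK2.7 was not called, at 8.77 and 10.06 CPM in sorbitol against 7.65 and 9.08 CPM in mock seedlings, values that overlapped.

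**Figure D2:**
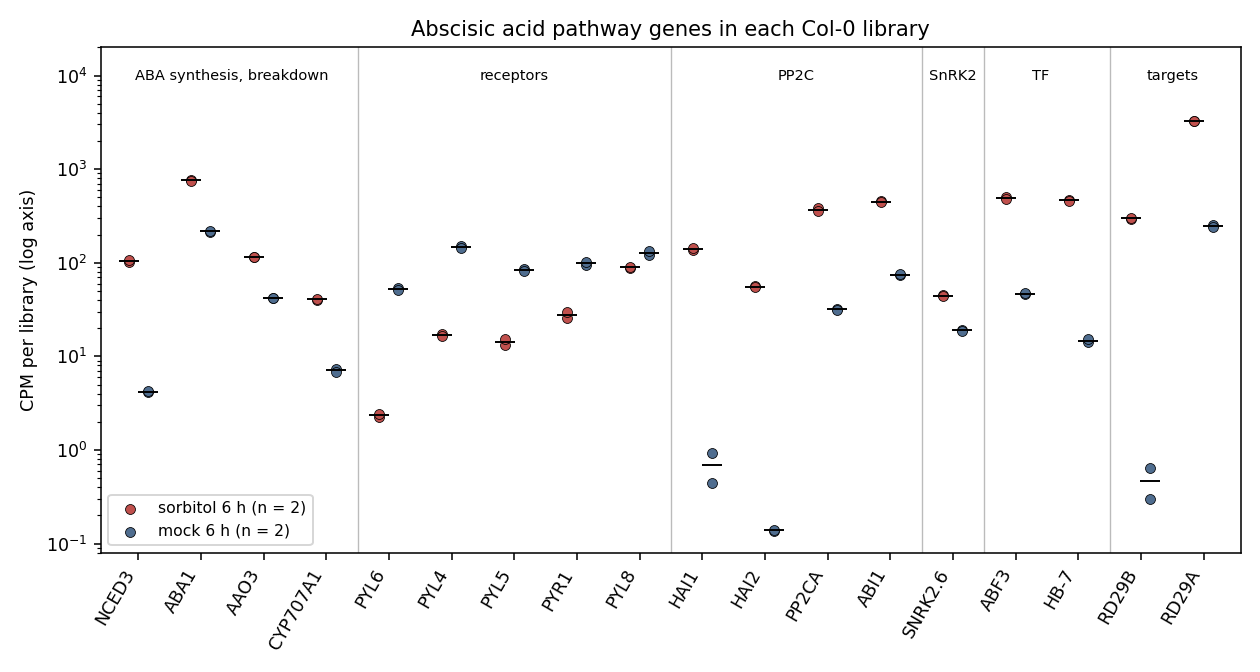
Level of ABA pathway genes in each Col-0 library in CPM on a log axis; each point is 1 library, sorbitol (red, n = 2) left of mock (blue, n = 2), and short lines are group means. NCED3, the phosphatases, the transcription factors and the targets stand higher in sorbitol, and the receptors PYL6, PYL4, PYL5, PYR1 and PYL8 stand lower.

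Of 22 tested transcription factors of ABA and drought responses, 20 rose, 18 of them by at least 2-fold, and 1 fell. ABF3, a bZIP factor that binds ABA-responsive elements, had 502 and 478 CPM in sorbitol seedlings and 45.9 and 47.5 CPM in mock seedlings (3.39 ± 0.04). ABF2 rose by 2.37, ABF1 by 1.1 and ABF4 by 0.86, and ABI5, the bZIP factor of seeds and early seedlings, by 2.15. HB-7 and HB-12 are homeodomain-leucine zipper factors. HB-7 had 471 and 458 CPM in sorbitol seedlings and 14.1 and 15.3 CPM in mock seedlings, a 31.6-fold rise (4.98 ± 0.05; edgeR adjusted p = 2.41e-62), and HB-12 had a log2 fold change of 4.30. Among the NAC factors, NAC019 had 92.1 and 89.1 CPM in sorbitol seedlings and 2.59 and 3.06 CPM in mock seedlings (5.0 ± 0.09), and RD26 and NAC032 rose by 3.25 and 3.35. MYB96, a regulator of wax synthesis, rose by 2.35. MYB60, a factor of guard cells that promotes stomatal opening, was the member that fell, at 12.7 and 10.6 CPM in sorbitol against 19.4 and 19.4 CPM in mock seedlings (-0.74 ± 0.10). ABI3 was not called and ABI4 was not tested.

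The 24 dehydrins, late embryogenesis abundant (LEA) proteins and dehydration genes all rose by at least 2-fold, with a median of 3.64. Their summed level was 16615 and 16741 CPM in sorbitol, against 2523 and 2538 CPM in mock seedlings. RD29B, the classic ABA-responsive reporter gene, had 294 and 301 CPM in sorbitol seedlings and 0.298 and 0.635 CPM in mock seedlings. Its neighbour RD29A, which also answers cold and drought without ABA, had 3252 and 3249 CPM in sorbitol seedlings and 251 and 242 CPM in mock seedlings. RD29B was below 1 CPM in both mock libraries and RD29A was far above it; the log2 fold changes were 9.31 ± 0.09 and 3.72 ± 0.03 (edgeR adjusted p = 3.65e-63 and 3.42e-66). LEA7 had 144 and 147 CPM in sorbitol seedlings and 0.275 and 0 CPM in mock seedlings, where the mock libraries held 12 and 0 reads, and LEA4-5 had a log2 fold change of 7.93 ± 0.10. The dehydrin RAB18 had 225 and 228 CPM in sorbitol seedlings and 3.41 and 3.88 CPM in mock seedlings (5.96 ± 0.07), RD20, a caleosin, rose by 5.82 and RD22, a BURP-domain protein, by 3.83. COR15A, which protects chloroplast membranes, rose by 3.95, ERD10 by 3.01 and the linker histone HIS1-3 by 4.09. EM1, a seed LEA protein, was listed at 0 reads in both mock libraries and was at least 35.9-fold higher. EM6 rested on 3 mock reads, with a ratio of 52.6 and an interval of 17.7 to 258. COR15A and COR15B, and KIN1 and KIN2, are close copies, so their reads may be split uncertainly.

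The 300 bases before the annotated start of 4 members are printed, chosen with their values known, because they differ in the elements they hold. They were read from the RefSeq assembly TAIR10.1, 5′ to 3′ on the gene's strand, with ACGTG, the core of the ABA-responsive element, and ACCGAC or GCCGAC, forms of the dehydration-responsive element, in capitals on either strand. The window of RD29B is chr5:21236721-21237020 on the plus strand and that of RD29A chr5:21240417-21240716 on the plus strand. The window of LEA7 is chr1:19619424-19619723 on the plus strand and that of PYL6 chr2:16846195-16846494 on the minus strand.
RD29B: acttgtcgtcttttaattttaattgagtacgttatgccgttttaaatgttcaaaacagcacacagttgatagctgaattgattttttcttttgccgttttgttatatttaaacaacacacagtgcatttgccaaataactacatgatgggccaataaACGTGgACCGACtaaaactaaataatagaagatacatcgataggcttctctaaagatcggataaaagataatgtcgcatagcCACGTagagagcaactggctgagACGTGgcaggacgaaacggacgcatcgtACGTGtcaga
RD29A: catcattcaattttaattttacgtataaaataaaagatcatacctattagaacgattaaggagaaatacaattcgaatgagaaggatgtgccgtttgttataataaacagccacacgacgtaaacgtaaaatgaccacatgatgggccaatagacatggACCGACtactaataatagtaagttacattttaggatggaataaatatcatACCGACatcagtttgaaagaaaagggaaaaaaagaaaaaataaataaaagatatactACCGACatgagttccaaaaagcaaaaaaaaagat
LEA7: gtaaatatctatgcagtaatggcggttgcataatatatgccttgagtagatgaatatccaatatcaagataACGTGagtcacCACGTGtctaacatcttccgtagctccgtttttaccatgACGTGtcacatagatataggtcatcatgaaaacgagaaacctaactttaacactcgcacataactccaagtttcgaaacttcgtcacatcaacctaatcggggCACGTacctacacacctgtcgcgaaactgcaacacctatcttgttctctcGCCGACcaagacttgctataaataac
PYL6: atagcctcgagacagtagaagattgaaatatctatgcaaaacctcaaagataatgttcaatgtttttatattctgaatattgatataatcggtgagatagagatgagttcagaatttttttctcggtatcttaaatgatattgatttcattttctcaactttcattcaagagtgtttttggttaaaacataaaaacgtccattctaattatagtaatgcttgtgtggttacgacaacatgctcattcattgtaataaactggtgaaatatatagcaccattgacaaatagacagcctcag
The RD29B window held 4 matches to ACGTG and 1 dehydration-responsive element, and RD29A held none of the first and 3 of the second. LEA7 held 5 and 1, where a palindromic CACGTG counts on both strands, and PYL6, which fell, held neither. Bases outside these windows, including those past the annotated start, were not searched. A window without a match therefore does not mean that the gene lacks the element.

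Over all called genes the share of windows with these letters followed the size of the rise. The extended form ACGTGGC or ACGTGTC, which contains ACGTG, was found on either strand in 25.4% of windows of genes at least 4-fold higher (154 of 606) and in 17% of those at least 2-fold higher. It was found in 3.65% of windows of genes at least 2-fold lower and in 1.81% of those at least 4-fold lower (7 of 386). The share was 7.86% of the 21516 windows of genes tested and 6.4% of all 32546. ACGTG alone stood in 51.7% of windows of genes at least 4-fold higher and in 27.5% of those at least 4-fold lower, against 26.6% of genes tested. For ACCGAC or GCCGAC the shares were 14.5%, 6.74% and 8.93%. TTGACC or TTGACT, the W box bound by WRKY factors, was in 31.5%, 39.4% and 32.2%. Median GC content was 32% in the first set, 30.7% in the second and 31.3% over genes tested. A match describes the window, some windows may run into a neighbouring gene, and use of the sites was not tested.

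**Figure D3:**
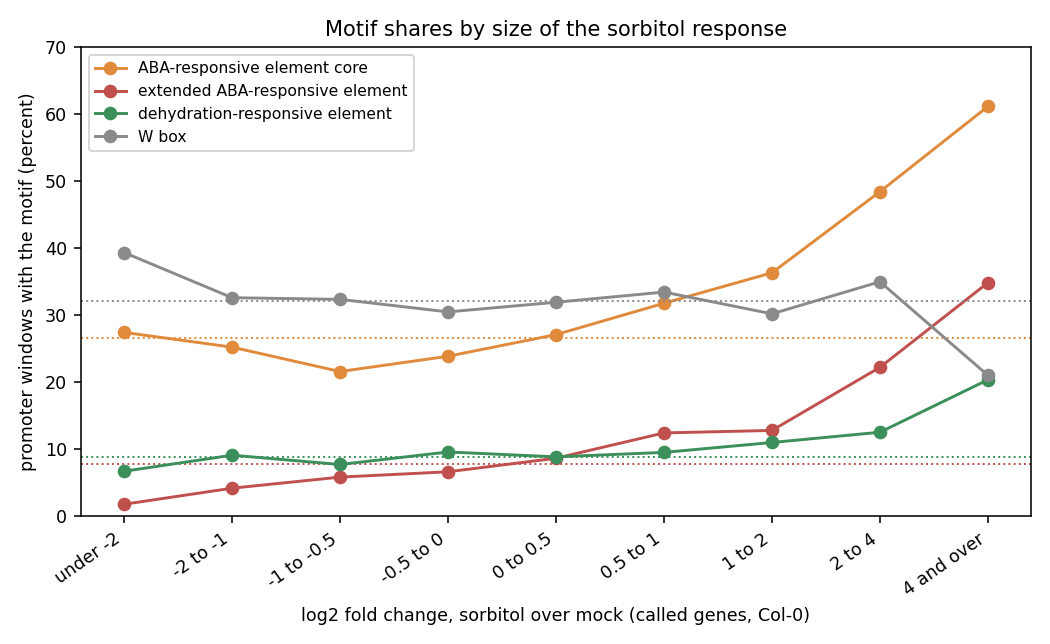
Share of 300-base promoter windows that hold a motif on either strand (vertical axis, percent) in called genes grouped by log2 fold change of sorbitol over mock (horizontal axis); dotted lines are the shares over all genes tested. The extended ABA-responsive element goes up to 34.9% and the core to 61.2% of the 152 windows of genes with a log2 fold change of 4 and over.

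Proline synthesis rose and proline breakdown fell at their first steps. P5CS1, the delta-1-pyrroline-5-carboxylate synthetase that limits proline synthesis in stress, had 1831 and 1801 CPM in sorbitol seedlings and 47.2 and 44.1 CPM in mock seedlings, a 39.8-fold rise (5.31 ± 0.04; edgeR adjusted p = 1.66e-70). Its housekeeping copy P5CS2 rose by 1.16 and OAT, ornithine aminotransferase, by 1.01. ERD5, the mitochondrial proline dehydrogenase also called PDH1, had 26.1 and 28.3 CPM in sorbitol seedlings and 113 and 109 CPM in mock seedlings (-2.03 ± 0.05), and no sorbitol value came near a mock value. P5CR, the second enzyme of synthesis, fell by 0.36 on the log2 scale, and the minor dehydrogenase PDH2 rose by 0.61. Of the 10 members tested 6 rose and 2 fell, and the transporters PROT1 and PROT3 were not called.

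In the galactinol and raffinose list 7 of 9 rose and 2 fell. GOLS2, the galactinol synthase of drought and salt, had 47.7 and 43.9 CPM in sorbitol seedlings and 0.321 and 0.494 CPM in mock seedlings (6.81 ± 0.15). GOLS4, GOLS3 and GOLS1 rose by 2.35, 1.0 and 0.89. For the inositol phosphate synthases, which make the inositol that galactinol needs, MIPS2 rose by 2.24 and MIPS1 by 1.01, and MIPS3 fell to 22.8 and 23.2 CPM in sorbitol, against 56.3 and 48.8 CPM in mock seedlings. RS4, a seed enzyme of stachyose and raffinose, was the other that fell, at a log2 fold change of -4.32 and a low level in both groups.

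Starch breakdown and sugar transport had 8 of 13 higher and 3 lower, with a median of 1.16. SWEET15, a sucrose exporter also called SAG29, had 45.7 and 46 CPM in sorbitol seedlings and 0.390 and 0.259 CPM in mock seedlings (7.13 ± 0.17). SUS3, a sucrose synthase, had 83.0 and 87.9 CPM in sorbitol seedlings and 7.10 and 5.43 CPM in mock seedlings, and BAM1, the stress-induced beta-amylase, and SEX1, the glucan water dikinase, rose by 1.92 and 1.3. SUS4, a sucrose synthase of low oxygen, fell by 2.52-fold, and ERDL6, a vacuolar glucose exporter, by 2.2-fold. BAM3 and AMY3 were not called. Genes that could meet the sorbitol itself changed less. SDH, sorbitol dehydrogenase, had 132 and 131 CPM in sorbitol seedlings and 122 and 126 CPM in mock seedlings, which did not pass the test (edgeR adjusted p = 0.0547). PMT5, a transporter that carries sorbitol among other polyols, rose by 0.49 and PMT6 fell by 0.63. The inositol transporters INT2 and INT1 rose by 2.82 and 1.0. In all 4 of the 8 tested rose and 2 fell, PMT1 and PMT2 were listed at 0 in all 16 libraries and cannot be read from these counts, and without mock replicate 1 the count of falls was 1.

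Aquaporins are the water channels of plasma membrane (PIP) and tonoplast (TIP). Of 19 tested, 7 were higher and 10 lower, beside 31.3% and 31.2% of all genes, and the median was -0.10. TIP2;1 fell most, to 147 and 153 CPM in sorbitol against 441 and 449.8 CPM in mock seedlings (-1.57 ± 0.03). PIP2;4 and PIP1;5 had log2 fold changes of -1.45 and -1.37. PIP2;1 had 789 and 824 CPM in sorbitol seedlings and 422 and 423 CPM in mock seedlings (0.93 ± 0.03), and PIP1;4 rose by 0.94. Summed over the 19 genes the level hardly differed, at 5332 and 5448 CPM in sorbitol against 5366 and 5296 CPM in mock seedlings. These genes are close copies, and reads between them may be split uncertainly.

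Wax, cutin and suberin genes rose in 14 of 17 cases and fell in 2, with a median of 1.18. CER1, which makes the alkanes of leaf wax, had 119 and 119 CPM in sorbitol seedlings and 11.5 and 9.29 CPM in mock seedlings (3.51 ± 0.07). CER3, its partner, and CER6, which elongates very long chain fatty acids, rose by 1.18 and 1.62, and KCS2, a related synthase of suberin and wax, by 4.13. WSD1, the wax ester synthase, had 4.51 and 4.99 CPM in sorbitol seedlings and 0.183 and 0.0235 CPM in mock seedlings. The suberin genes ASFT and CYP86B1 rose by 1.38 and 1.87. CER4, which makes primary alcohols, and GPAT8, a cutin acyltransferase, had log2 fold changes of -1.5 and -0.40.

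All 21 genes of DNA replication and mitosis fell, 3 by at least 2-fold, with a median of -0.74, and in each both sorbitol libraries lay below both mock libraries. That order without overlap was found for 39.9% of all genes tested. MCM6, a subunit of the replicative helicase, had 7.03 and 7.38 CPM in sorbitol seedlings and 19.1 and 17.57 CPM in mock seedlings (-1.35 ± 0.11). PCNA1, the sliding clamp, had 6.86 and 6.66 CPM in sorbitol seedlings and 19.5 and 19.1 CPM in mock seedlings (-1.51 ± 0.11), and CDT1A, a licensing factor, fell by 2.14-fold. The 6 helicase subunits MCM2 to MCM7 ranged in log2 fold change between -1.35 and -0.67. Among the mitotic genes, CYCB1;1, a cyclin of the G2 to M transition, had -0.79, the cytokinesis kinesin HINKEL -0.84 and the cytokinesis syntaxin KNOLLE -0.34.

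Cell wall loosening genes fell in 14 of 20 cases, 7 by at least 2-fold, and rose in 3. XTH4, a xyloglucan endotransglucosylase, had 65.1 and 67.2 CPM in sorbitol seedlings and 384 and 384 CPM in mock seedlings (-2.54 ± 0.04; edgeR adjusted p = 2.33e-54). XTH15 and TCH4 had log2 fold changes of -2.42 and -2.05. EXPA1, an expansin also found in guard cells, had 78.4 and 80.7 CPM in sorbitol seedlings and 201 and 201 CPM in mock seedlings (-1.34 ± 0.04). EXPA10, an expansin of leaves, rose by 0.93, and EXPA4 and EXPB3 rose by less. In the cellulose list of 7, CESA1, CESA3 and CESA6, the synthases of the primary wall, fell, with log2 fold changes of -0.30, -0.56 and -0.51, as did COB, which orients cellulose deposition, at -0.68. CESA4, CESA7 and CESA8, the synthases of the secondary wall, rose by 0.36, 0.48 and 0.49. The primary wall members and the secondary wall members thus split without exception in these libraries.

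Growth hormone genes were mostly lower. Of 23 auxin genes, 14 fell and 3 rose, with a median of -0.43. AUX1, an auxin importer, had 92.4 and 95.4 CPM in sorbitol seedlings and 178 and 172 CPM in mock seedlings (-0.90 ± 0.04), and PIN2, an exporter of the root tip, fell by 0.89. The response gene IAA19 had 5.55 and 4.75 CPM in sorbitol against 15.1 and 18.23 CPM in mock seedlings. GH3.5 and GH3.2, which conjugate auxin to amino acids, rose by 1.3 and 1.35. Type-A response regulators, targets and brakes of cytokinin signalling, fell in 6 of 9 cases, each of the 6 by at least 2-fold. ARR7 had 9.30 and 7.68 CPM in sorbitol seedlings and 23 and 25.5 CPM in mock seedlings (-1.52 ± 0.10), and ARR5, ARR6 and ARR4 had -1.5, -1.51 and -1.21. ARR8, ARR9 and ARR16 rose, by 0.34, 0.50 and 0.58.

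Of the gibberellin genes 5 of 15 were higher and 6 lower, beside 31.3% and 31.2% of all genes. GASA1, a gibberellin-induced peptide, had 48.0 and 48.6 CPM in sorbitol seedlings and 326 and 319 CPM in mock seedlings, a 6.67-fold fall (-2.74 ± 0.04; edgeR adjusted p = 7.1e-55). GA2OX7, an enzyme that inactivates gibberellin and is known from salt stress, had 8.24 and 7.43 CPM in sorbitol seedlings and 0.527 and 0.165 CPM in mock seedlings (4.48 ± 0.25). RGL3, a DELLA repressor, rose by 1.2 and GID1B, a gibberellin receptor, by 0.88. In the ethylene list 7 of 13 fell and 4 rose. ACO1, an oxidase of the last step of synthesis, had 11.2 and 10.9 CPM in sorbitol seedlings and 53.1 and 51.6 CPM in mock seedlings (-2.24 ± 0.07 on the log2 scale). ERS2, a receptor, rose by 1.88.

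Jasmonate genes rose in 15 of 23 cases and fell in 1. LOX2, the chloroplast lipoxygenase of jasmonate synthesis, had 713 and 746 CPM in sorbitol seedlings and 137 and 132 CPM in mock seedlings (2.44 ± 0.04). The synthesis genes AOS, AOC1, AOC2 and OPR3 rose by 1.02, 1.69, 1.56 and 0.62. VSP2, a storage protein used as a jasmonate marker, had 253 and 252 CPM in sorbitol seedlings and 25.4 and 24.2 CPM in mock seedlings (3.35 ± 0.04). CYP94B3, which oxidises the active hormone, had 29.9 and 32.0 CPM in sorbitol seedlings and 2.04 and 2.21 CPM in mock seedlings (3.86 ± 0.12). The repressors were less uniform: of the 10 JAZ genes tested, JAZ1, JAZ3, JAZ5 and JAZ12 rose by 0.68, 0.51, 1.07 and 0.78, and the other 6 were not called. MYC2, the main factor of the pathway, was listed at 0 in all 16 libraries, so its level cannot be read from these counts. Of the salicylate and immune genes 4 of 13 were higher and 3 lower, with a median of 0.11, shares no larger than the 31.3% and 31.2% of all genes. PR2, a glucanase, rose by 0.70; PR1 at 3.5 and 3.55 CPM in sorbitol and 3.25 and 2.02 CPM in mock seedlings lost its call without mock replicate 2 (edgeR adjusted p = 0.53), where its log2 fold change was 0.12. The 4 rises became 2 without mock replicate 2 or without sorbitol replicate 2, and the 3 falls became 1 without mock replicate 2, without sorbitol replicate 1 or with DESeq2.

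In the aliphatic glucosinolate list, defence compounds made from methionine, 10 of 15 rose and 5 fell. MAM1 and MAM3 are chain elongation enzymes of short and long side chains; MAM1 rose by 0.68 and MAM3 had 115 and 125 CPM in sorbitol seedlings and 331 and 322 CPM in mock seedlings (-1.45 ± 0.04). CYP79F1 rose by 1.18 and its paralogue CYP79F2 fell by 0.88 on the log2 scale, and FMOGS-OX3 and the factor MYB29 rose by 1.11 and 1.17. Without sorbitol replicate 1 the falls in this list were 3. Flavonoid genes rose in 7 of 13 cases and fell in 2, or 1 without mock replicate 1. PAP1, the MYB factor of anthocyanin synthesis, had 6.08 and 5.66 CPM in sorbitol seedlings and 0.115 and 0.376 CPM in mock seedlings (4.57 ± 0.36), its bHLH partner TT8 rose by 1.85 and DFR and LDOX, late enzymes, by 1.81 and 2.14. CHS, the first enzyme, and FLS1, the flavonol synthase, had log2 fold changes of -0.43 and -0.27.

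The CBF/DREB and ERF list had 15 of 20 higher and 3 lower. CBF3, a cold-induced activator, had 19.3 and 20.9 CPM in sorbitol seedlings and 1.79 and 1.74 CPM in mock seedlings (3.51 ± 0.15), and DREB2A, the drought and heat activator, had 12.7 and 11.6 CPM in sorbitol seedlings and 3.07 and 2.82 CPM in mock seedlings (2.04 ± 0.14). CBF4, a drought-induced member, was at 0 in both mock libraries and at least 9.87-fold higher. ERF104 fell by 1.44 on the log2 scale, and ERF5 and ERF6 were not called. Of 24 early ZAT and WRKY genes, which answer many stresses within minutes, 12 rose, 5 fell and 7 were not called. AZF2, a zinc finger repressor, had 17.42 and 17 CPM in sorbitol seedlings and 3.02 and 3.97 CPM in mock seedlings (2.3 ± 0.13), ZAT6 rose by 1.37, WRKY11 by 0.81 and WRKY18 fell by 1.17. ZAT12 had 3.18 and 2.88 CPM in sorbitol and 3.16 and 3.29 CPM in mock seedlings, which overlapped. Of 14 heat shock genes, 8 rose and 2 fell. The factors HSFA6A and HSFA6B, known from ABA and drought responses, had log2 fold changes of 4.62 and 4.94, and HSP70 rose by 2.05. HSFA7A fell by 2.23, and HSP101, the disaggregase of heat tolerance, was at 9.30 and 10.4 CPM in sorbitol and 11.1 and 8.54 CPM in mock seedlings, overlapping.

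Genes of light harvesting rose together and genes of the small subunit of Rubisco fell. All 16 light-harvesting genes tested were higher, by log2 fold changes from 0.25 (LHCB5) to 1.62 (LHCB2.4). LHCB2.4 had 762 and 769 CPM in sorbitol seedlings and 249 and 247 CPM in mock seedlings (1.62 ± 0.03). The 4 small subunit genes fell, with log2 fold changes of -0.19 for RBCS1A, -0.51 for RBCS3B, -0.71 for RBCS2B and -2.26 for RBCS1B, and RCA, Rubisco activase, rose by 0.07. Members of both families are close copies of each other. Of 18 root markers 4 rose, 7 fell and 7 were not called, beside 31.3% of all genes called higher and 31.2% called lower. Their summed level was 157 and 171 CPM in sorbitol against 186 and 184 CPM in mock seedlings and the part of tissue makeup in the results above was not tested. CASP1 had 32.2 and 35.6 CPM in sorbitol and 34.8 and 33.7 CPM in mock seedlings, overlapping. CASP5 rose by 2.16, PRP3, a root hair wall protein, fell by 1.01, and without sorbitol replicate 2 the rises were 2. Clock genes moved both ways, 8 of 16 higher and 6 lower, beside the same shares of all genes. LNK1, a morning activator, had 129 and 125 CPM in sorbitol seedlings and 54.7 and 56.4 CPM in mock seedlings (1.19 ± 0.05), and PRR9 and CCA1, also of the morning, rose by 1.17 and 0.97. GI and ELF3, of the evening, had log2 fold changes of -0.15 and -0.38, and FKF1, TOC1 and ELF4, also of the evening, rose by 0.82, 0.27 and 0.94.

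**Figure D4:**
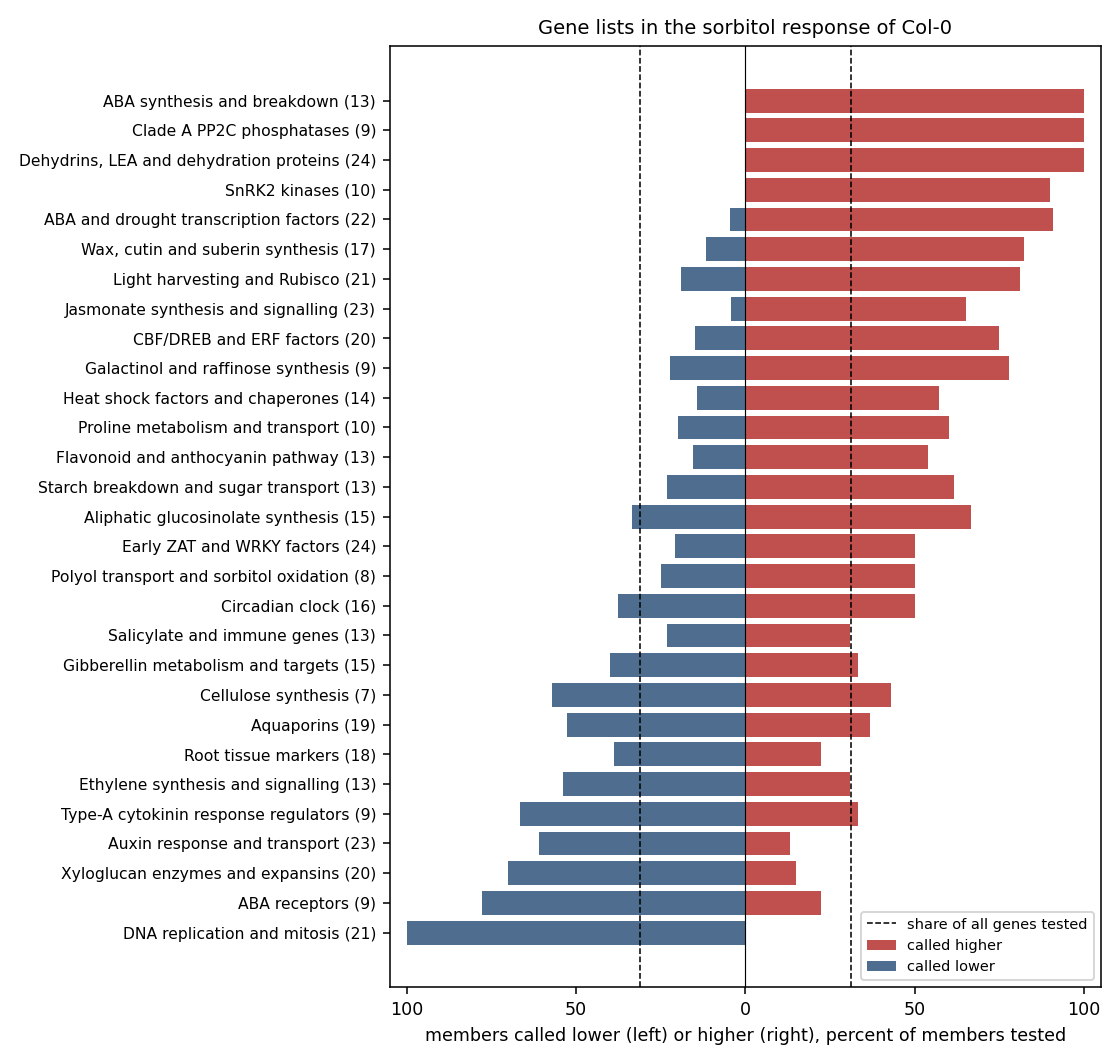
Share of the tested members of each list that were called higher (red, right) or lower (blue, left) in sorbitol than in mock Col-0 seedlings, in percent; the number tested stands in brackets and dashed lines mark the 31.3% and 31.2% of all genes. ABA synthesis, phosphatases and dehydrins reach 100% higher, and DNA replication and mitosis reaches 100% lower.

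The seu-6 seedlings met the same sorbitol, with mock libraries of their own. Of the 3479 Col-0 genes called and changed at least 2-fold, 3379 had the same direction in seu-6 and 2925 were called there the same way. Genes called higher in both numbered 5334, which is 85.3% of those called in seu-6 and 78.7% of those called in Col-0. The difference between the 2 responses, seu-6 minus Col-0, was called higher in seu-6 for 1216 genes (5.62%) and lower for 1596 (7.38%). Without seu-6 mock replicate 1, the library that stood apart, the counts were 912 and 1368. For the phosphatases 7 of 9 had a called difference, all lower in seu-6, as did 17 of 24 dehydrins, LEA and dehydration genes, with 1 called higher, and 16 of 22 transcription factors.

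SWEET15 differed widely, with a log2 fold change of 3.69 in seu-6 against 7.13 in Col-0 (difference -3.44 ± 0.30; edgeR adjusted p = 7.42e-14). CYP94B3 had 1.53 in seu-6 against 3.86 in Col-0, NAC019 3.06 against 5.0, and HAI2 6.17 against 8.61. NCED3 showed no called difference, at 4.43 in seu-6 and 4.65 in Col-0 (difference -0.22 ± 0.16), and neither did PYL6 or GASA1. Type-A regulators fell less in seu-6, with a called difference for 4 of 9. ARR7 had a log2 fold change of -0.44 in seu-6 against -1.52 in Col-0, and ARR5 had -0.40 against -1.5. XTH15 had -1.08 in seu-6 against -2.42 in Col-0. Without seu-6 mock replicate 1 the difference was -3.71 ± 0.36 for SWEET15, and those of CYP94B3, NAC019, HAI2, ARR7, ARR5 and XTH15 kept their direction and their call. Among genes with a symbol in the reference, the 8 of smallest p for this difference were ESM1, FTM1, HB1, BT1, ECS1, UPM1, BGLU44 and ADC2. ADC2, the arginine decarboxylase of putrescine synthesis, had 2786 and 2754 CPM in sorbitol and 1117 and 1139 CPM in mock seu-6 seedlings, against 3775 and 3637 and 969 and 981 CPM in Col-0 (difference -0.63 ± 0.04). HB1, a plant haemoglobin of low oxygen, had 135 and 130.5 CPM in sorbitol and 208 and 214 CPM in mock seu-6 seedlings, against 41.5 and 39.9 and 135 and 134 CPM in Col-0 (difference 1.05 ± 0.06).

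**Figure D5:**
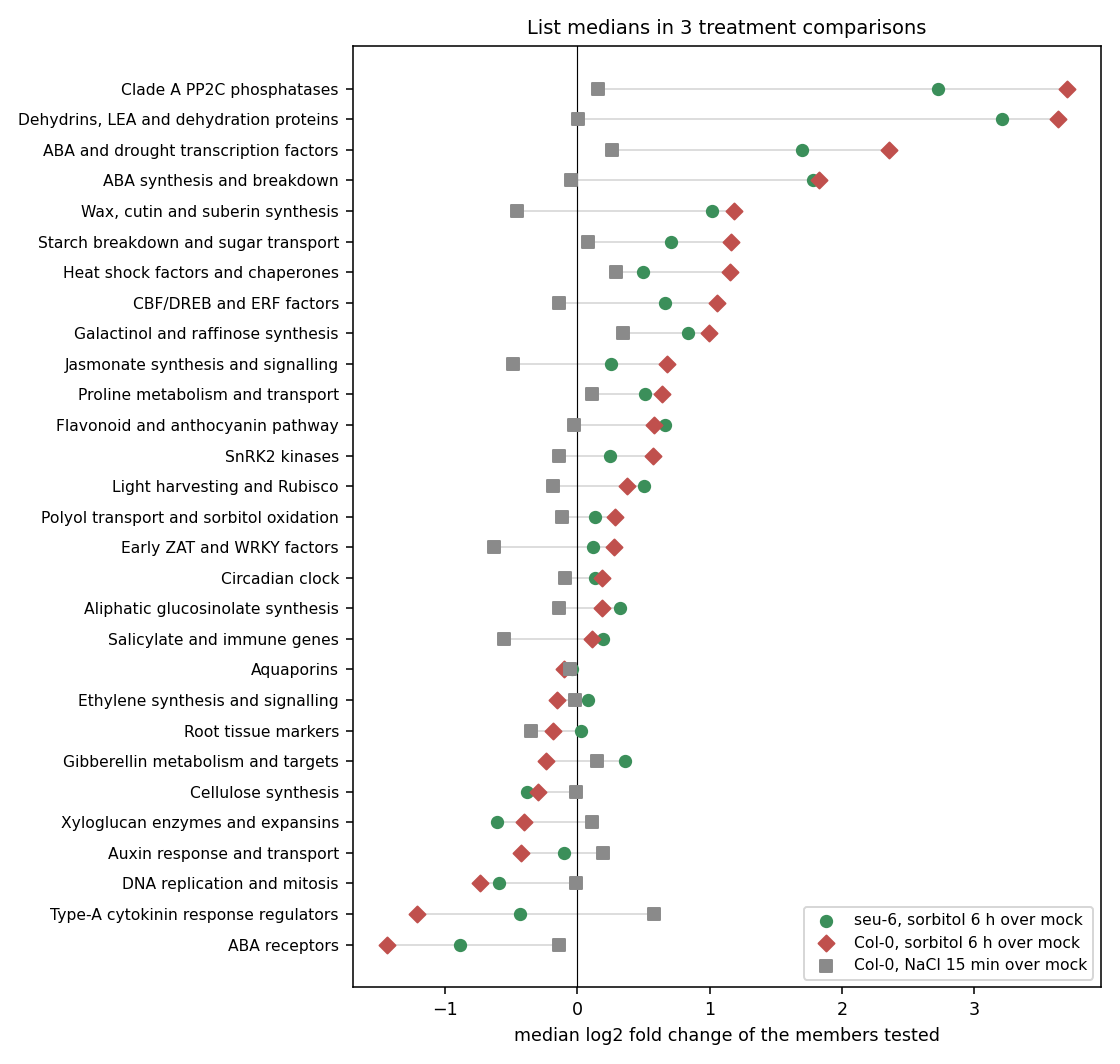
Median log2 fold change (horizontal axis) of the tested members of each list in seu-6 under sorbitol (circles), Col-0 under sorbitol (diamonds) and Col-0 under NaCl (squares), each over its own mock. The sorbitol medians of both genotypes lie on the same side of 0 for most lists, and the NaCl medians of the lists that rose most under sorbitol lie near 0.

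Set against the NaCl response of Col-0, the sorbitol response was higher for 5938 of 22582 genes (26.3%) and lower for 5774 (25.6%). Age, time, solute and experiment differ together between them and cannot be told apart. Among genes with a symbol that the 6 h fit also tested, the 8 of smallest p were P5CS1, RD22, DIN10, ERD10, RD29A, COR15A, XTH4 and PP2CA. P5CS1 had a log2 fold change of 5.31 under sorbitol against -0.07 under NaCl (difference 5.37 ± 0.05; edgeR adjusted p = 2.51e-63). DIN10, a raffinose synthase-like gene induced in the dark, had -2.43 under sorbitol against 0.69 under NaCl. RD29A had 3.72 against 0.65, and NCED3 had 4.65 against 1.76, both called in each treatment. Of the 21633 genes tested in the 6 h experiment, 3299 were called higher and 3936 lower under NaCl. Genes called higher in both numbered 1322, which is 19.5% of those under sorbitol and 40.1% of those under NaCl. Another 1610 of the genes called higher under sorbitol (23.8%) were called lower under NaCl. On the lower side 1285 genes were called lower in both, 19.1% of those called lower under sorbitol. Another 1005 (14.9%) called lower under sorbitol were called higher under NaCl. These shares stand beside the 3936 and 3299 of all 21633 genes called lower and higher under NaCl. Across all genes the log2 fold changes of the sorbitol and NaCl responses correlated with r = 0.063. The ZAT and WRKY list had a median of 0.27 under sorbitol against -0.63 under NaCl, the jasmonate list 0.68 against -0.48, and type-A response regulators -1.21 against 0.58.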

How the data were processed

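Poly(A) RNA of whole seedlings was extracted with Trizol and made into libraries with a NEXTflex kit, per the labels. The deposited values are raw read counts per gene, 1 file a library; per the submitters' processing notes the tools were HISAT2 2.2.1, HTSeq 0.13.5 and DESeq2 and the build TAIR10. The strand setting and annotation release were not given in the sources used here, so reads of overlapping and antisense genes and of close copies are uncertain. Summary rows of reads not assigned to a gene, which include reads without a unique alignment, were dropped (8.78% to 9.57% of reads in the 4 Col-0 libraries).

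Counts were fitted with edgeR 4.0.16 (R 4.3.3) by the quasi-likelihood F test with TMM scaling, the default filter on low counts and Benjamini-Hochberg adjustment. The 8 libraries of the 6 h experiment shared 1 estimate of spread (4 residual degrees of freedom). Differences between responses were contrasts in the same fit, or in a fit with the NaCl libraries. DESeq2 1.42.0, size factors, no filter, fewer or more libraries, a replicate block and leaving out each replicate were the alternatives. The fit was tested on simulated data. RefSeq TAIR10.1 gave symbols (32548 of 32833 gene IDs matched) and promoter windows of 300 bases from its own annotation.

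The text names the 10 largest rises and falls and up to 4 called members a list by smallest p. It also names 8 genes with a symbol for each difference, and other list members by value. One of the genes so chosen is left out and not reported here. The members and the 29 lists (470 genes, 448 tested) were chosen with earlier results of these data known, so list counts are descriptions. With 2 libraries a group an exact permutation test could not reach the threshold, so none was made. Intervals for near-absent genes cover counting error only.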

Additional observations from a re-analysis of the deposited data

Results flagged for a closer look

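The sorbitol response differed between the genotypes, by the test of the difference itself, in 188 of the 448 list members tested, 72 with a higher and 116 with a lower log2 fold change in seu-6 than in Col-0. Over all genes the difference was called higher for 5.62% and lower for 7.38%, and the list members were chosen with earlier results of these data known. All differences below are seu-6 minus Col-0 on the log2 scale and passed edgeR's quasi-likelihood test after adjustment over all genes.

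The 8 genes of smallest p were taken among genes with a symbol. The difference was 0.86 for ESM1, a modifier of glucosinolate hydrolysis, 1.1 for FTM1, a stearoyl-ACP desaturase, and 1.05 for HB1. For BT1, a BTB and TAZ domain scaffold protein, the difference was -0.87, and for ECS1 -1.08. It was 0.75 for UPM1, a methyltransferase of sirohaem synthesis, 0.76 for BGLU44, a beta-glucosidase, and -0.63 for ADC2. ESM1, BGLU44, BT1 and ECS1 differed more between genotypes in mock, and FTM1, HB1, UPM1 and ADC2 more in sorbitol, as ratios. ESM1 had 401 and 397 CPM in mock seu-6 against 689 and 685 CPM in mock Col-0 seedlings. In sorbitol it had 1287 and 1273 against 1206 and 1215 CPM. ECS1 was higher in seu-6 in both media, at 236 and 228 against 107 and 108 CPM in sorbitol.

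In 13 of the 448 list members tested, both responses were called, ran in opposite directions and had a called difference between them. Over all genes, 74 called higher in Col-0 were called lower in seu-6, 1.09% of those called higher in Col-0. Another 75 called lower in Col-0 were called higher in seu-6, 1.11% of those called lower in Col-0. A called difference was not required in the counts over all genes. ABR1 and RAP2.6, factors of the ERF family, fell in seu-6 (-0.87 and -0.36) and rose in Col-0 (0.41 and 0.79), with differences of -1.28 and -1.15. CYP707A3, which breaks down ABA, also fell in seu-6 (-0.65) and rose in Col-0 (0.39), a difference of -1.04, as did KCS20 with -0.30 and EDS5 with -0.41. IAA29 rose in seu-6 (0.65) and fell in Col-0 (-1.03), a difference of 1.68, and the expansin EXPA8 did the same (0.62 and -0.76), a difference of 1.38. The remaining members rose in seu-6 and fell in Col-0, with 0.69 for ERF2, 0.57 for EXPA3, 0.36 for GASA4, 0.31 for MYB28, 0.29 for SOT18 and 0.25 for RBCS1A. Without seu-6 mock replicate 1, which stood apart, the differences of these 13 members and of the 8 genes above kept their direction and still passed the test.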

How the results depend on the processing

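The counts of genes called kept within 1.5 times their value under every alternative run. The genes behind the counts changed more. Among alternatives that left out no single replicate, at least 92.3% of genes called higher and 89.6% called lower in the sorbitol response stayed called. For the difference between seu-6 and Col-0 the lowest shares were 72.4% and 69.9%. For sorbitol against NaCl they were 98.5% and 90.8%. For the sorbitol response of Col-0 they ranged from 6309 to 6853 higher and 6067 to 6753 lower, the low ends with DESeq2, and leaving out 1 library gave 6160 to 6216 higher and 6025 to 6098 lower. List members called were 241 to 248 higher and 134 to 140 lower, or 231 to 239 and 129 to 136 without 1 library. For the difference between seu-6 and Col-0 the counts were 895 to 1242 higher and 1128 to 1708 lower in seu-6, and 903 to 1068 and 1178 to 1413 without 1 library. For sorbitol against NaCl they were 5900 to 6435 higher and 5268 to 5851 lower, and 5556 to 5936 and 4985 to 5244 without 1 library.

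With the replicate number as a block 6742 genes were called higher and 6717 lower. Across genes, deviations of same-numbered libraries correlated between -0.068 and 0.056. These values show no strong shared deviation, but they cannot tell whether same-numbered libraries were handled together. Of the 141 named entries of the sorbitol response, PR1 and NPR1 lost the call under some alternative: PR1 with DESeq2 (adjusted p = 0.079), with the 4 Col-0 libraries alone (edgeR adjusted p = 0.11) and without mock replicate 2 or sorbitol replicate 2 (edgeR adjusted p = 0.53 and 0.054), and NPR1 without mock replicate 1 (edgeR adjusted p = 0.067). Of the other 326 list members 44 lost and 16 gained a call under at least 1 alternative. None that was called in the main fit or in the alternative changed direction between them. Changes of direction in members called in neither were not counted. CPM are relative to each library's total after TMM scaling, and RNA per seedling was not measured.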

Other observations

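Groups outside the lists were formed from words in the product names of the RefSeq annotation, leaving out members of the lists, after values had been seen, as were the genes named from them, and are given as descriptions beside the 31.3% of all genes called higher and the 31.2% called lower. Of 315 tested genes with "ribosomal protein" in the name, 272 were lower and 16 higher in sorbitol than in mock Col-0 seedlings, with a median log2 fold change of -0.57. Their summed level was 32845 and 32113 CPM in sorbitol against 45595 and 46670.5 CPM in mock seedlings, and their median under NaCl was -0.01. NUC-L1, a nucleolin of ribosome assembly, had 333 and 325 CPM in sorbitol seedlings and 793 and 798 CPM in mock seedlings (-1.27 ± 0.03 on the log2 scale), and NOP56, of the same process, had -1.52. Enzymes that charge tRNAs were lower in 32 of 53 cases and higher in 9. Tubulins and their partners were lower in 18 of 28 cases and higher in 2; TUA5 had 122 and 119 CPM in sorbitol seedlings and 369 and 355 CPM in mock seedlings.

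Small auxin up RNA (SAUR) genes were lower in 29 of 59 cases, 22 by at least 2-fold, and higher in 9. Their median was 0.01 in seu-6 against -0.74 in Col-0. Arabinogalactan and fasciclin-like proteins were lower in 27 of 45 and higher in 5. On the rising side, NAC domain genes were higher in 33 of 60 cases and lower in 8, glutathione S-transferases were higher in 30 of 50 and lower in 10, and autophagy genes were higher in 13 of 17. Photosystem genes were higher in 27 of 42 cases and lower in 8, with a median of 0.27, against -0.14 under NaCl.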
